A study of Mus musculus with 6 samples.

Results

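The transcripts of 10 genes of the ADAMTS family of matrix proteases (*Adamts1*, *Adamts2*, *Adamts4*, *Adamts5*, *Adamts7*, *Adamts9*, *Adamts10*, *Adamts12*, *Adamts15* and the ADAMTS-like gene *Adamtsl1*) were followed in cardiac fibroblasts with and without Cre-mediated *Tet3* deletion. They were picked by gene symbol from a table of 22063 genes measured by RNA-seq, and all 10 were found. The choice of genes was made with earlier results of these data known. Primary fibroblasts from the hearts of C57BL/6J mice with floxed *Tet3* alleles had been transduced with an adenovirus coding for GFP (Ad-GFP, labelled GFP, the control) or for Cre recombinase (Ad-Cre, labelled CRE, the knockout), with 3 libraries in each group. Every library, the controls included, came from cells that carried the floxed alleles, an adenovirus and TGF-β treatment. No untreated cells and no cells without a virus were analysed here, so the values compare the viruses under TGF-β and show no response to TGF-β itself. The reagent list of the study names adenoviruses with a CMV promoter, which is active in most cell types, and the names of both the Cre vector and its control hold EGFP. The age of the mice is not given in the sources used here. Replicates are called biological in the study's legend for the RNA-seq panels, but no source used here says that they came from separate mice or cultures, so the p-values measure the spread between these libraries.

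ADAMTS proteases are secreted zinc metalloproteinases with thrombospondin type 1 repeats, made as zymogens whose propeptide is removed by furin-like convertases. One branch (*Adamts1*, *Adamts4*, *Adamts5*, *Adamts9* and *Adamts15*) cleaves the large hyaluronan-binding proteoglycans versican and aggrecan, and another (*Adamts2*, with *Adamts3* and *Adamts14*) trims the amino-terminal propeptide from fibrillar procollagens. ADAMTS7 and ADAMTS12 are known to cleave cartilage oligomeric matrix protein, and ADAMTS10 binds fibrillin microfibrils. ADAMTS-like proteins keep the repeats and lack the protease domain. In the heart, versican and its cleavage are known from valve development and from the remodelling of the provisional matrix, and collagen propeptide removal from the building of fibrils. TET3, the product of the deleted gene, oxidises 5-methylcytosine, mainly at CpG dinucleotides.

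DNA upstream of the start sites is shown for the members with a RefSeq promoter entry (4 of 10), since the substrate of TET3 is methylated CpG and CpG content separates these genes. Each is the 250 bases before the annotated start in GRCm38.p6, written 5′ to 3′ on the strand of the gene with every CpG in capitals. The windows are chr16:85803114-85803363 on the minus strand for *Adamts1*, chr11:50601835-50602084 on the plus strand for *Adamts2*, chr6:92943535-92943784 on the minus strand for *Adamts9* and chr15:11064523-11064772 on the plus strand for *Adamts12*.
*Adamts1*: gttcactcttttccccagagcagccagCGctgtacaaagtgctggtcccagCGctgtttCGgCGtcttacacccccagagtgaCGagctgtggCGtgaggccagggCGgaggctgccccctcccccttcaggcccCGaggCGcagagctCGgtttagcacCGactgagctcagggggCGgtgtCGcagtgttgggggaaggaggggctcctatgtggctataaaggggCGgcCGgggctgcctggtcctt
*Adamts2*: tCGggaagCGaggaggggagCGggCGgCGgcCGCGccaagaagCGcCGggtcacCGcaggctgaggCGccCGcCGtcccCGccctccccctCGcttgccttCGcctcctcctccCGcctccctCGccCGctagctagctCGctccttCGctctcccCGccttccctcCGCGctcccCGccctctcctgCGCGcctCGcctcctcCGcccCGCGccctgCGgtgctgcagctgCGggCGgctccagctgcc
*Adamts9*: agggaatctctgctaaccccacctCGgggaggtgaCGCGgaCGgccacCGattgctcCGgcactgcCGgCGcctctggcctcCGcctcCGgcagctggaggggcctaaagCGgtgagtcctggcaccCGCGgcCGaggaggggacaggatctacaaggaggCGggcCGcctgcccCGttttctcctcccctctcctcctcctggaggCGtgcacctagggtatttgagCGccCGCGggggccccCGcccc
*Adamts12*: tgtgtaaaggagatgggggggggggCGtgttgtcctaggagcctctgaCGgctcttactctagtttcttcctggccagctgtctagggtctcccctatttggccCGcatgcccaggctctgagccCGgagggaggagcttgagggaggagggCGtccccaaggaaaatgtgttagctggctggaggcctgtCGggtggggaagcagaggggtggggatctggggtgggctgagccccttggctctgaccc

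The *Adamts2* window was the richest of the 4, with 34 CpGs and 78.0% G or C, and 96.5% of the 32851 RefSeq windows of this length held fewer CpGs. *Adamts9* had 22 CpGs, above 85.2% of windows, and *Adamts1* had 15, above 72.7%. *Adamts12* had 6, the median over all windows. The decreases given later were 3.63-fold for *Adamts1*, 1.79-fold for *Adamts12*, 1.74-fold for *Adamts9* and 1.35-fold for *Adamts2*. A relation between CpG count and these decreases was not tested. On either strand, the only match to the motifs searched was the TATA box letters TATAAA in *Adamts1*, found in 12.4% of all windows. None of the 4 held CAGAC (bound by SMAD proteins, in 42.2% of all windows), TGANTCA (AP-1, 6.75%), GGAATG (TEAD factors, 12.6%), CCAAT (33.8%) or a CArG box (1.47%). Absence of these letters says only that they are not in this window, and methylation of these CpGs was not measured here.

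The targeted gene, counted over its whole length, gave 1044, 965 and 1000 reads after Ad-GFP and 642, 649 and 637 after Ad-Cre. The groups did not overlap, and *Tet3* normalised counts in CRE averaged 60.8% of those in GFP (log2 fold change -0.72, SE 0.08, adjusted p = 5.36e-05, edgeR). Which exons were lost cannot be read from such a count. Total counts were between 17002126 and 20343590 per library. Replicates differed beyond counting error, with a chi-square per degree of freedom of 7.88 and 10.12 for the pairs that hold GFP replicate 1 and between 3.53 and 4.65 for the other pairs. GFP replicate 1 also lay below both other GFP libraries for 6 of the 9 tested members, against 34.7% of all tested genes, and values without it are given with those genes. The labelled cell type was checked against 11 fibroblast markers, all of which were detected. Their summed levels were 39255 to 40544 normalised counts (CPM, counts scaled to a common effective library size) in GFP and 22133 to 24192 in CRE. Most of each sum came from the collagen genes *Col1a1*, *Col1a2* and *Col3a1*, while *Vim* and *S100a4* stood at 81.9% and 101% of their GFP means. The sums are therefore no measure of fibroblast number. In bulk RNA, fewer cells of a type and less RNA per cell cannot be told apart.

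*Tet3* deletion was accompanied by lower levels of the tested ADAMTS transcripts, to very different degrees. *Adamts1* and *Adamts5*, a neighbouring pair of proteoglycan-cleaving proteases, fell to 27.5% and 28.1% of their GFP means, and *Adamtsl1* to 42.5%. *Adamts12*, *Adamts9* and *Adamts10* fell to 55.8%, 57.6% and 61.6%, and *Adamts2*, *Adamts4* and *Adamts7* to 74.1%, 75.5% and 79.4%. *Adamts15* was barely detected in either group. Of the 10 genes, 9 passed the filter on low counts, each with at least 34 counts in every library of both groups, and all 9 were lower in CRE at an adjusted p under 0.05 (edgeR quasi-likelihood test) while 0 were higher. Among all 12862 tested genes, 25.7% were called lower and 25.5% higher. Since the 10 genes were chosen with earlier results of these data known, this contrast describes them and is not an independent test. Every CRE library lay below every GFP library for these 9 genes, against 29.6% of tested genes. The median log2 fold change was -0.80 for the 9 and 0.01 for all tested genes. With 3 libraries a group, an exact permutation test of single genes cannot go below p = 0.1, the value each of the 9 gave.

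**Figure D1:**
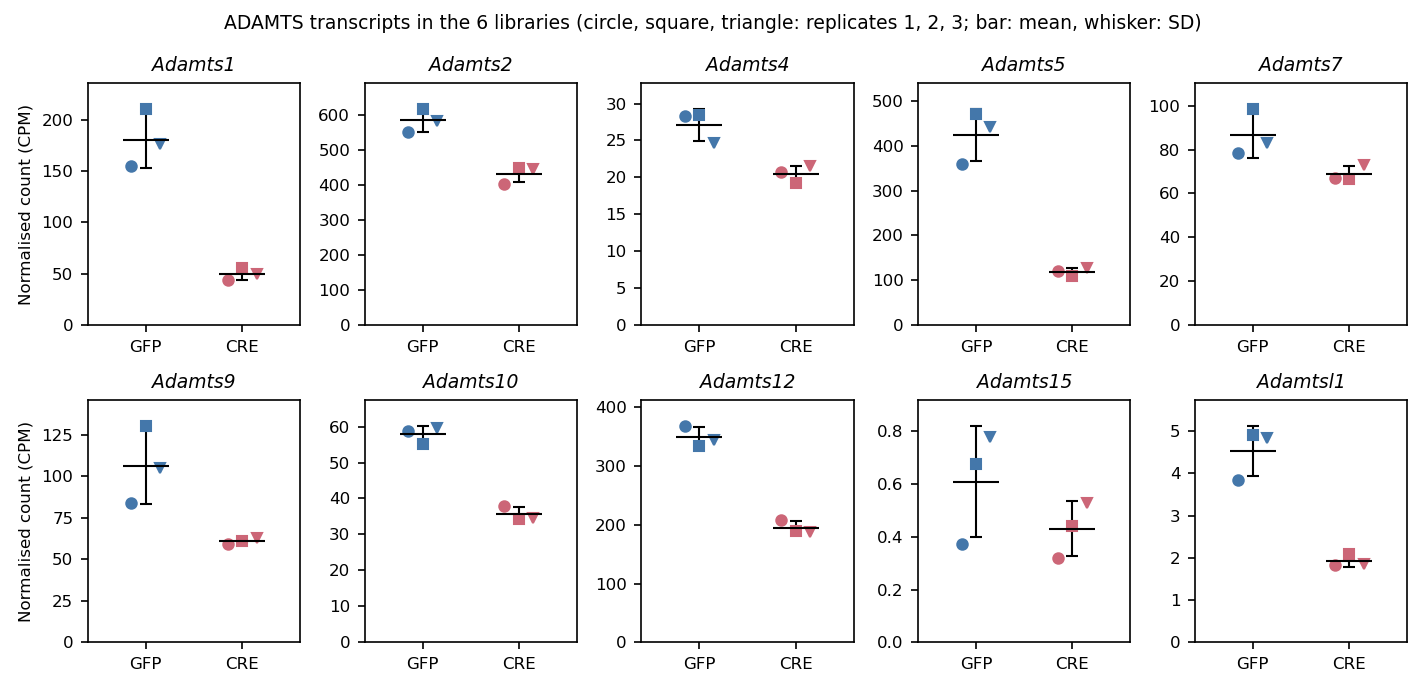
Normalised counts (CPM, linear axes that start at 0) of the 10 ADAMTS genes in the GFP (blue) and CRE (red) libraries, with 1 point per library, a bar for the mean and a whisker for the SD. For *Adamts1* and *Adamts5* the CRE libraries lie far under the GFP libraries, for *Adamts4* and *Adamts7* the gap is narrow, and for *Adamts15*, below 1 CPM, the groups overlap.

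The proteoglycan-cleaving branch held both the largest and some of the smallest decreases among the 10 genes. Gene spans are given in GRCm38, from the GENCODE annotation. *Adamts1* (chr16:85793827-85803113, minus strand) encodes a protease that cleaves versican and aggrecan. Its levels were 155, 210.4 and 176 CPM in GFP and 43.7, 55.2 and 50.1 CPM in CRE. All CRE libraries were at about the same low level, well under the lowest GFP library. The decrease was 3.63-fold (log2 fold change -1.86, SE 0.11, adjusted p = 9.95e-07, edgeR), and without GFP replicate 1 the log2 fold change was -1.96. *Adamts5* (chr16:85856173-85901828, minus strand), a major aggrecan- and versican-cleaving enzyme, lies upstream of *Adamts1* on the same strand, with 53.1 kb between the genes. It stood at 359, 471 and 442 CPM in GFP and 120.5, 109.9 and 127 CPM in CRE. Here too GFP replicate 1 was the lowest control and still far above every CRE library. *Adamts5* fell 3.56-fold (log2 fold change -1.83, SE 0.09, adjusted p = 4.96e-07), or by 1.94 on the log2 scale without GFP replicate 1. Only 122 of the 12862 tested genes had a log2 fold change as low as that of *Adamts1* and 134 as low as that of *Adamts5*, each count including the gene itself.

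*Adamts9* (chr6:92772699-92943492, minus strand), a conserved versican-cleaving member that also acts in the secretory pathway, showed the widest control spread of the tested members relative to its mean. Its GFP libraries were at 84.1, 130.3 and 105 CPM and its CRE libraries at 59.3, 61.3 and 63.2 CPM. The groups stayed apart, but GFP replicate 1 was nearer to the CRE libraries than to GFP replicate 2. *Adamts9* fell 1.74-fold (log2 fold change -0.80, SE 0.12, adjusted p = 0.000417), with a log2 fold change of -0.94 without GFP replicate 1. *Adamts4* (chr1:171250421-171260637, plus strand), an aggrecan-cleaving enzyme, was at 28.3, 28.4 and 24.6 CPM in GFP and at 20.7, 19.3 and 21.5 CPM in CRE. The gap between the lowest GFP and the highest CRE library was small beside that of *Adamts5*. Its decrease was 1.32-fold (log2 fold change -0.40, SE 0.08, adjusted p = 0.00184). On the deposited FPKM values the log2 difference of *Adamts4* was between -0.24 and -0.20 and was not called (adjusted p between 0.0629 and 0.0905, limma). *Adamts15* (chr9:30899155-30922452, minus strand), a further versican-cleaving member, had 6, 12 and 15 counts in GFP and 6, 8 and 10 in CRE. It was too low to be tested, its groups overlapped, and a difference was not detectable at this depth.

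*Adamts2* (chr11:50602084-50807573, plus strand), the main procollagen N-propeptidase, had the highest level of the 10 per length in every library. It was at 551, 616 and 583 CPM in GFP and at 403, 449 and 444 CPM in CRE. The 2 groups were clearly separate, though the decrease was among the smaller ones. *Adamts2* fell 1.35-fold (log2 fold change -0.43, SE 0.06, adjusted p = 0.000139), and by 0.24 on the log2 scale where log2(FPKM + 1) was used instead of counts, still called. Without GFP replicate 1, its log2 fold change was -0.47.

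*Adamts12* and *Adamts7* share their domain layout and the cartilage oligomeric matrix protein as a substrate. *Adamts12* (chr15:11064790-11349231, plus strand) was at 367, 334 and 344 CPM in GFP and at 208, 189 and 187 CPM in CRE. The libraries within each group were close together and the groups far apart. *Adamts12* fell 1.79-fold (log2 fold change -0.84, SE 0.06, adjusted p = 1.82e-06). *Adamts7* (chr9:90163069-90208071, plus strand) was at 78.4, 98.5 and 83.2 CPM in GFP and at 67.1, 66.4 and 73.1 CPM in CRE. GFP replicate 1 and CRE replicate 3 came close to each other without crossing. The decrease of *Adamts7* was the smallest of the tested members, 1.26-fold (log2 fold change -0.33, SE 0.08, adjusted p = 0.00578), and it was not called when libraries were scaled by their size alone (-0.17, adjusted p = 0.0914) or on FPKM values (-0.16 to -0.15, adjusted p between 0.164 and 0.219). Without GFP replicate 1, *Adamts7* had a log2 fold change of -0.40. Scaling by size alone moved the median of all tested genes to a log2 fold change of 0.17. With that scaling 8 of the 9 tested members were still called lower, against 16.2% of all tested genes.

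*Adamts10* (chr17:33524204-33553782, plus strand), which binds fibrillin-1 and is mutated in Weill-Marchesani syndrome, was at 58.7, 55.2 and 59.5 CPM in GFP and at 38.0, 34.4 and 34.5 CPM in CRE. Neither group varied much and they did not overlap. *Adamts10* fell 1.62-fold (log2 fold change -0.70, SE 0.06, adjusted p = 8.48e-06), or by 0.45 on the log2 scale on FPKM values, still called. *Adamtsl1* (chr4:85514172-86428385, plus strand), also called punctin, a secreted matrix protein without protease activity, had 62, 87 and 93 counts in GFP and 34, 38 and 35 in CRE. Those counts correspond to 3.85, 4.9 and 4.83 CPM in GFP and 1.83, 2.1 and 1.85 CPM in CRE. Its CRE libraries were alike and its groups apart, on the lowest counts of any tested member. *Adamtsl1* fell 2.35-fold (log2 fold change -1.24, SE 0.18, adjusted p = 0.00029), and without GFP replicate 1 the log2 fold change was -1.34. On the log2(FPKM + 1) scale, which understates changes of low genes, the value was -0.34 and still called.

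The study called genes at a p under 0.05 before adjustment and a ratio above 1.5 or below 0.66. In the edgeR results this was met by 6 of the 9 tested members (*Adamts1*, *Adamts5*, *Adamtsl1*, *Adamts12*, *Adamts9* and *Adamts10*), all lower in CRE, against 10.3% of tested genes. With library size alone it was met by 5, on log2(FPKM + 0.1) by 4 and on log2(FPKM + 1) by 3. The share of all tested genes that met it under these settings is not given here, so these counts stand without a background.

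Levels of different genes were compared per length with the deposited FPKM values, fragments scaled to transcript length and sequencing depth. In GFP, *Adamts2* led with 79.6 ± 4.44 FPKM (SD, n = 3). *Adamts1* (40.1 ± 7.67), *Adamts12* (38.4 ± 1.86) and *Adamts5* (37.1 ± 5.13) followed, and neighbours among these overlapped between libraries. *Adamts7* (15.8 ± 1.92), *Adamts10* (14.5 ± 0.806) and *Adamts9* (12.6 ± 2.73) came next and also overlapped from neighbour to neighbour. *Adamts4* (5.86 ± 0.463), *Adamtsl1* (0.707 ± 0.12) and *Adamts15* (0.097 ± 0.0339) closed the order, each apart from its neighbours. In CRE, *Adamts2* was still the highest at 67.1 ± 4.78 FPKM, and *Adamts12* (24.0 ± 1.32) and *Adamts7* (14.0 ± 0.727) now stood above *Adamts1* (12.2 ± 1.14) and *Adamts5* (11.7 ± 0.814). In FPKM, every library of *Adamts7* lay above every library of *Adamts1* and *Adamts5* in CRE and below them in GFP. Measured as CPM per kb of merged exons, *Adamts7* overlapped *Adamts5* in CRE, at 10.7, 10.6 and 11.6 against 11.2, 10.2 and 11.8, and still lay above *Adamts1*. Levels of *Adamts10* (10.3 ± 0.682), *Adamts9* (8.19 ± 0.301), *Adamts4* (4.95 ± 0.263), *Adamtsl1* (0.35 ± 0.0669) and *Adamts15* (0.0767 ± 0.0186) followed in CRE, and of these *Adamts10* overlapped *Adamts5*.

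The mix of ADAMTS transcripts differed between the groups, as did their sum. Summed FPKM over the 10 genes was 226, 265 and 243 in GFP and 148, 155 and 156 in CRE. *Adamts1* and *Adamts5* together made up 28.7%, 33.9% and 31.7% of that sum in GFP and 15.4%, 15.6% and 15.9% in CRE. *Adamts2* made up 33.4%, 31.8% and 32.5% in GFP and 41.6%, 45.4% and 44.5% in CRE. The share of the proteoglycan-cleaving pair was lower in every CRE library than in any GFP library and that of the procollagen N-propeptidase higher, although all 3 transcripts fell. *Adamts12* made up 13.9% to 17.9% in GFP and 14.7% to 17.2% in CRE, and its groups overlapped. Shares of a sum are not independent of each other, and they were not tested.

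Of the other family genes, 16 were in the table and 9 passed the filter. There 5 were lower in CRE, 1 was higher and 3 were not called, with a median log2 fold change of -0.47, against 25.7% of all tested genes lower, 25.5% higher and a median of 0.01. *Adamts3*, a procollagen N-propeptidase like *Adamts2*, moved the other way. It was at 2.24, 3.66 and 2.39 CPM in GFP and at 4.51, 5.76 and 5.91 CPM in CRE, with no overlap, which was 195% of the GFP mean (log2 fold change 0.96, SE 0.21, adjusted p = 0.00332). *Adamts14*, the other member of that branch, was lower (8.9 ± 0.752 CPM in GFP, 6.43 ± 0.492 in CRE, log2 fold change -0.47, SE 0.12, adjusted p = 0.00695), a call lost on FPKM values (adjusted p between 0.0952 and 0.124). The genes of the N-propeptidases thus did not share a direction. *Adamts6*, the close homologue of *Adamts10*, fell from 50.9 ± 1.89 to 36.8 ± 2.5 CPM (log2 fold change -0.47, SE 0.06, adjusted p = 0.000157). *Adamts8* was at 1.24 ± 0.216 CPM in GFP and 1.99 ± 0.5 in CRE and was not called (log2 fold change 0.69, adjusted p = 0.0582), though 6 of 17 alternative analyses called it higher.

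Among the ADAMTS-like genes, *Adamtsl4*, which encodes a fibrillin-binding protein of the eye's suspensory fibres, fell the most, from 9.51 ± 0.942 to 3.53 ± 0.614 CPM (log2 fold change -1.43, SE 0.15, adjusted p = 3.09e-05). *Adamtsl5* fell by 0.75 on the log2 scale (SE 0.10, adjusted p = 0.000119) and *Adamtsl3* from 165 ± 13.1 to 103 ± 5.54 CPM (log2 fold change -0.69, SE 0.06, adjusted p = 1.51e-05). *Adamtsl2* (log2 fold change -0.13, adjusted p = 0.399) and *Thsd4* (-0.75, adjusted p = 0.0605) were not called, and the sign of *Adamtsl2* turned with scaling by size alone and on FPKM values. *Adamts18* had 0 counts in every library, and *Adamts13*, *Adamts16*, *Adamts17*, *Adamts19*, *Adamts20* and *Papln* were too low to be tested.

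**Figure D2:**
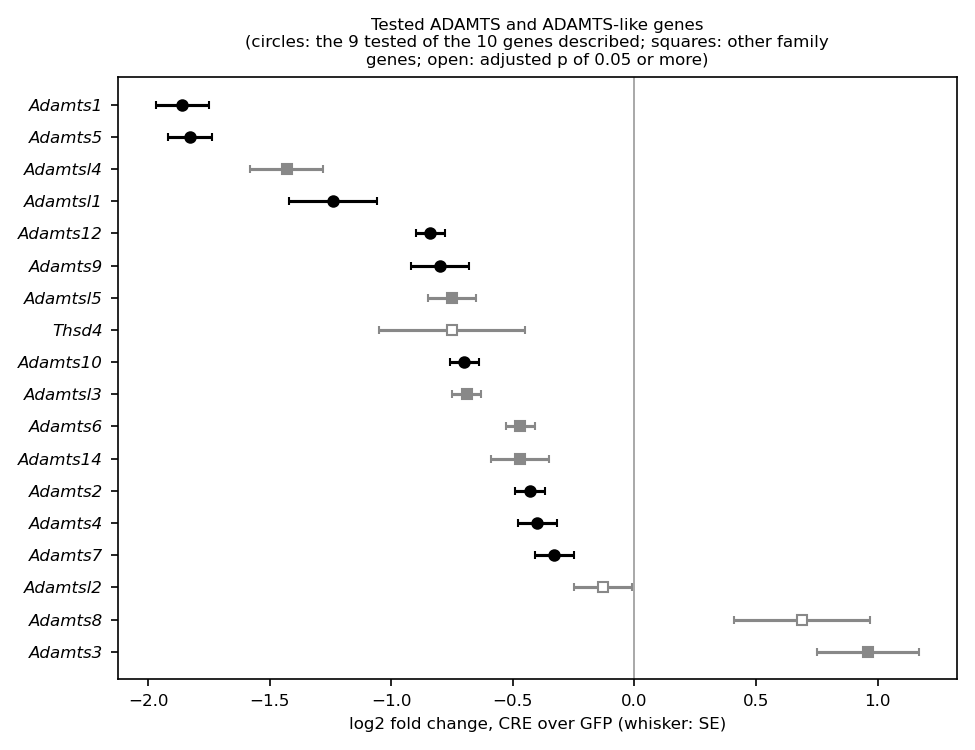
Log2 fold change (CRE over GFP, edgeR) of the 18 tested ADAMTS and ADAMTS-like genes, with the SE as whiskers. Black circles are the 9 tested members, grey squares the other family genes and open symbols those with an adjusted p of 0.05 or more. *Adamts1* and *Adamts5* lie furthest to the left, and *Adamts3* is the only called gene to the right of 0.

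The substrates and partners of these proteases were read from 5 lists, of which 46 genes were in the table and 40 were tested. There 27 were lower in CRE, 2 higher and 11 not called, with a median log2 fold change of -0.54, beside the same shares of all tested genes. These lists too were chosen with earlier results of these data known, so the contrast is not an independent test. All 6 fibrillar procollagen genes, substrates of ADAMTS2, were lower, with a median of -0.95. *Col2a1* had the lowest log2 fold change (-2.31, SE 0.39, adjusted p = 0.000715), at 1.73 ± 0.44 CPM in GFP. It had 35, 23 and 33 counts in GFP and 8, 8 and 3 in CRE. As it passed the filter through its GFP counts alone, a lower call was the likely outcome, and the median includes it. With 10 counts required in every library it dropped out, and 5 procollagen genes were lower. *Col3a1* came next (-1.25, SE 0.08, adjusted p = 1.4e-06). The decreases were smallest for *Col1a2* (-0.65, SE 0.04, adjusted p = 9.95e-07) and *Col5a1* (-0.48, SE 0.04, adjusted p = 1.27e-05), with *Col5a2* at -1.17 and *Col1a1* at -0.74. The log2 fold change of *Adamts2*, -0.43, was nearer to 0 than any of these, and the ratios to *Col1a1* and *Col3a1* within each library are given further on.

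Among the proteoglycans and hyaluronan link proteins, 5 of 7 tested genes were lower and 0 higher, against 25.7% and 25.5% of all tested genes. *Acan*, which encodes aggrecan, fell from 9.69 ± 0.719 to 0.987 ± 0.178 CPM, 10.2% of the GFP mean (log2 fold change -3.28, SE 0.17, adjusted p = 4.96e-07), the largest decrease on the 5 lists. *Vcan*, which encodes versican, was at 581, 772 and 650.1 CPM in GFP and 281, 311 and 310.3 CPM in CRE. Its groups did not overlap, and it fell to 45.0% (log2 fold change -1.15, SE 0.09, adjusted p = 5.25e-06). The small leucine-rich proteoglycan genes *Dcn* (-0.80), *Fmod* (-0.54, SE 0.08, adjusted p = 0.00044) and *Bgn* (-0.51, SE 0.04, adjusted p = 2.77e-06) made up the rest of the calls.

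Of the 8 microfibril and cartilage matrix genes tested, 6 were lower and 0 higher, against 25.7% and 25.5% of all tested genes. *Fbn2* (-1.22, SE 0.34, adjusted p = 0.0116) and *Fn1* (-1.14, SE 0.05, adjusted p = 3.39e-07), which encode a fibrillin and fibronectin, had the lowest log2 fold changes. *Fbn2* had 25, 29 and 22 counts in GFP and 9, 16 and 9 in CRE, and it needed its GFP counts to pass the filter. *Fbn1*, the fibrillin-1 gene, fell by 0.97 on the log2 scale, and *Efemp2* (-0.34, SE 0.04, adjusted p = 0.00011) and *Comp* (-0.26, SE 0.09, adjusted p = 0.035) had the smallest decreases. *Comp*, the gene of cartilage oligomeric matrix protein, was at 15.1 ± 0.602 CPM in GFP and 12.5 ± 1.1 in CRE and was called in 7 of 17 alternatives.

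Inhibitors, cofactors and clearance receptors were lower for 6 of 9 tested genes and higher for 0, against 25.7% and 25.5% of all tested genes. *Timp3*, the main tissue inhibitor of ADAMTS4 and ADAMTS5, fell from 3551 ± 315 to 1642 ± 38.1 CPM (log2 fold change -1.11, SE 0.06, adjusted p = 5.17e-07). *A2m*, a plasma protease inhibitor, was at 2.01 ± 0.177 CPM in GFP (log2 fold change -0.89, SE 0.26, adjusted p = 0.015). The fibulin genes *Fbln1* (-0.79) and *Fbln2* (-0.53) and *Lrp1* (-0.48, SE 0.05, adjusted p = 2.7e-05), an endocytic receptor that clears ADAMTS proteases, were lower as well. The call of *A2m* was kept in 13 of 17 alternatives and lost on log2(FPKM + 1) and log2(FPKM + 0.1) with the filter (adjusted p = 0.0601 and 0.0544, limma), without GFP replicate 3 (0.0535) and without CRE replicate 3 (0.0574). That of *Fbn2* was kept in 13 of 16 and lost in the 3 analyses of FPKM values (adjusted p between 0.0528 and 0.269). *Timp2* had the smallest called decrease (-0.19, SE 0.04, adjusted p = 0.00214), which turned to a log2 difference of 0.07, not called, on FPKM values. *Timp1* was not called (-0.09, adjusted p = 0.236).

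Of the genes of propeptide processing and secretion, 4 of 10 tested were lower and 2 higher, near the 25.7% and 25.5% of all tested genes. *Pcsk5* fell from 213 ± 20.3 to 92.9 ± 5.88 CPM (log2 fold change -1.20, SE 0.07, adjusted p = 9.95e-07), and *Tll1*, a relative of the procollagen C-proteinase, by 0.86 on the log2 scale (SE 0.11, adjusted p = 9.74e-05). *Furin*, the convertase best known for activating ADAMTS zymogens, rose from 229 ± 14.3 to 324 ± 15.5 CPM (log2 fold change 0.50, SE 0.06, adjusted p = 5.38e-05), and *Pcsk7* from 25.6 ± 2.19 to 36.7 ± 3.88 CPM (0.52, SE 0.09, adjusted p = 0.000818). The enhancers of procollagen C-proteinase, *Pcolce2* (-0.58) and *Pcolce* (-0.43), were lower.

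Ratios of a protease count to the count of its substrate, inhibitor or relative within the same library do not depend on how libraries are scaled. In 12 of 15 such ratios the groups did not overlap, 4 being lower and 8 higher in CRE. Such separation was common, as it held for 58.1% of all 82709091 pairs that the tested genes can form. An exact permutation test of 3 against 3 gives p = 0.1 at best, and the smallest p adjusted over the 15 ratios was 0.125, so none passed a threshold. The log2 ratio of *Adamts1* to *Vcan* was -1.91, -1.87 and -1.89 in GFP and -2.68, -2.49 and -2.63 in CRE, a difference of -0.71. That of *Adamts5* to *Vcan* differed by -0.68. For both proteases every CRE library had a lower ratio to versican than any GFP library, while for *Adamts4* and *Adamts9* every CRE library had a higher one, with differences of 0.74 and 0.37. The ratio of *Adamts15* to *Vcan* was also higher (0.70), but it rests on 6 to 15 counts of *Adamts15*. These directions hold for versican only, as no ratio to *Acan* was computed. *Acan*, with a log2 fold change of -3.28, fell more than any tested protease of this branch, *Adamts1* (-1.86) and *Adamts5* (-1.83) included.

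The ratio of *Adamts2* to *Col1a1* and to *Col3a1* was higher in every CRE library than in any GFP library. The log2 differences were 0.30 for *Col1a1* and 0.82 for *Col3a1*, the only procollagen genes set against it. This does not extend to all its substrates, as *Col5a1* (log2 fold change -0.48) fell about as much as *Adamts2* (-0.43). Against *Timp3*, the log2 ratio differed by -0.71 for *Adamts5* and by 0.71 for *Adamts4*, the only members set against it, so their changes lay on opposite sides of that of *Timp3*. *Adamts12* was lower relative to *Comp* (-0.58), and the ratio of *Adamts7* to *Adamts12* was higher (0.52). *Adamts10* was higher relative to *Fbn1* (0.27). In 3 ratios the groups overlapped, those of *Adamts7* to *Comp* (-0.06, exact permutation p = 0.7), *Adamtsl1* to *Fbn1* (-0.25, p = 0.3) and *Adamts1* to *Adamts5* (-0.03, p = 0.9). The log2 ratio of *Adamts1* to *Adamts5* was -1.21, -1.16 and -1.33 in GFP and -1.46, -0.99 and -1.34 in CRE, so the means of this neighbouring pair lay within the spread of the libraries, which was wider in CRE (SD 0.24) than in GFP (SD 0.09).

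**Figure D3:**
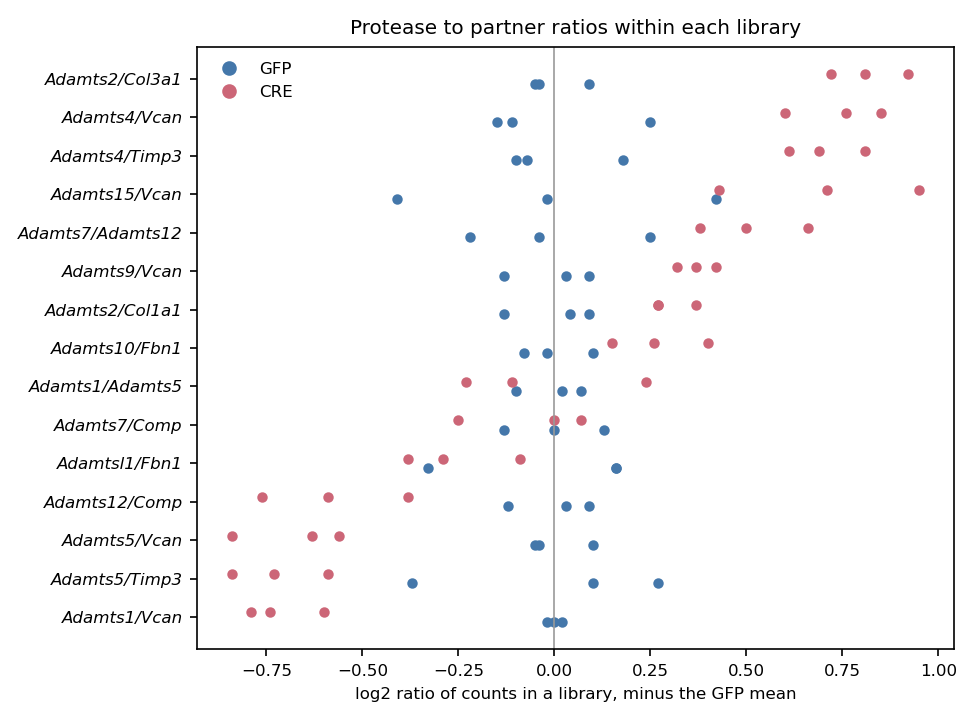
Within-library log2 count ratios of 15 gene pairs, each shown as 6 points (GFP blue, CRE red) on a log2 axis as the difference from the GFP mean of that pair, pairs ordered by their mean difference. The CRE points of *Adamts1* and *Adamts5* over *Vcan* lie below 0, those of *Adamts4* over *Vcan* and *Adamts2* over *Col3a1* lie above 0, and those of *Adamts1* over *Adamts5* fall on both sides.

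Markers of cell types were read beside the ADAMTS genes, with 25.7% of all tested genes lower and 25.5% higher as the background for each count. Of the 11 fibroblast markers tested, 9 were lower in CRE (median log2 fold change -0.74), among them *Tcf21* (-1.80), *Lum* (-1.46) and *Pdgfra* (-0.87). Those over 50 CPM were *Col1a1*, *Col1a2*, *Col3a1*, *Dcn*, *Lum*, *Pdgfra*, *Ddr2* and *Vim*, all lower, and *S100a4*, which was not called. Of 15 endothelial markers, 12 were lower, 1 was higher and 2 were not called (median -1.15), with summed levels of 1244 to 1307 CPM in GFP and 1084 to 1135 in CRE. The endothelial markers over 50 CPM were *Eng*, which rose from 644 to 798 CPM, and *Cdh5*, *Ptprb*, *Cd93*, *Pecam1* and *Emcn*, which fell, *Cd93* from 75.0 to 14.9 CPM. *Eng* was the largest part of each sum, so the sums understate the decreases of the other endothelial markers. Among the lower ones, *Cldn5* (19, 19 and 31 counts in GFP, 2, 2 and 7 in CRE) passed the filter through its GFP counts alone. Smooth muscle and pericyte markers were lower for 6 of 11 and higher for 1, with summed levels of 1094 to 1249 CPM in GFP and 927 to 944 in CRE, most of it *Pdgfrb* (973 and 782 CPM), with *Smtn*, the other marker over 50 CPM, at 57.7 and 52.6 CPM and not called. Macrophage markers summed to 58.6 to 66.3 CPM in GFP and 34.9 to 38.4 in CRE, with 3 of 6 tested lower. Cardiomyocyte markers summed to 0.789 to 1.19 CPM in GFP and 1.42 to 2.68 in CRE, with *Myh6* at 0 in every library. *Nppb* was the only one of 10 tested and was higher, on 2, 1 and 3 counts in GFP and 28, 21 and 13 in CRE. It passed the filter through its CRE counts alone, so a higher call was the likely outcome. Epicardial and mesothelial markers summed to 7.95 to 9.13 CPM and 8.34 to 11.9 CPM, with 3 of 5 tested higher and *Wt1* lower (-2.10). Of the higher ones, *Krt19* (10, 15 and 9 counts in GFP) and *Upk1b* (7, 8 and 12) likewise needed their CRE counts to pass the filter. The part of these markers' cells in the decreases of the ADAMTS genes was not tested.

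Across the alternative analyses the members kept their direction. Of 153 values (9 genes under 17 alternatives), 146 stayed on the same side of the threshold, 7 were lower without being called and 0 turned sign. *Adamts1* lay between -1.96 and -1.62 and *Adamts5* between -1.94 and -1.58 over all of them, and *Adamts9* between -0.94 (without GFP replicate 1) and -0.54. The 7 values that were not called belong to *Adamts4* and *Adamts7*, the genes with the smallest decreases.

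**Figure D4:**
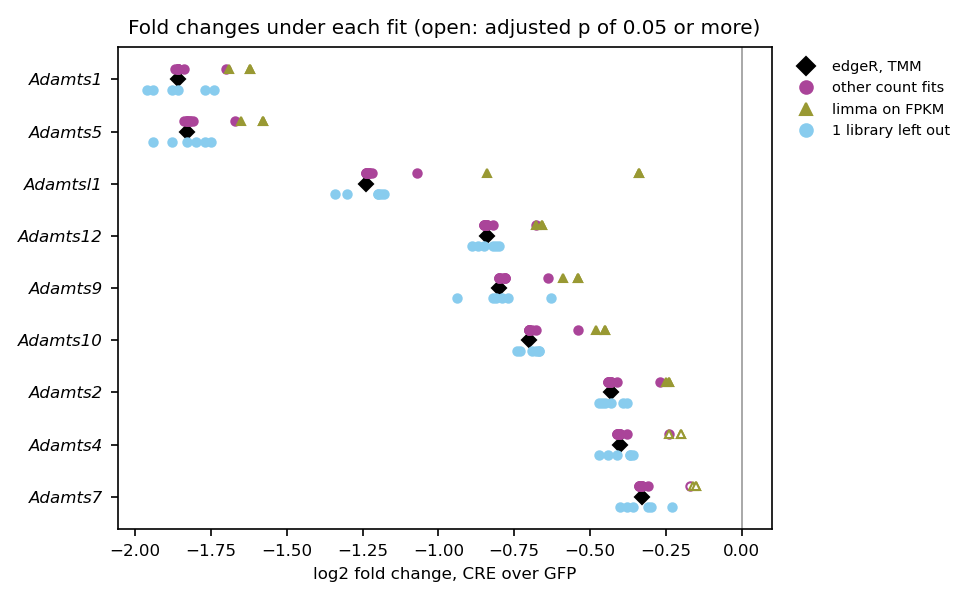
Log2 fold change of the 9 tested ADAMTS genes (CRE over GFP) in the edgeR analysis (black diamonds) and under the 17 alternatives (purple, other analyses of counts; olive triangles, limma on FPKM; light blue, 1 library left out), with open symbols for an adjusted p of 0.05 or more. All symbols lie below 0, and the 7 open ones, some of them overlapping, are those of *Adamts4* and *Adamts7*.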

How the data were processed

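RNA-seq of TGF-β-treated mouse cardiac fibroblasts with floxed *Tet3* was analysed, with 3 libraries titled GFP and 3 titled CRE. Per its methods, the study trimmed reads with Trimmomatic, aligned them with HISAT2 to GRCm38, counted them per gene with HTSeq-count and derived FPKM with Cufflinks. Versions and the strand setting are not given in the sources used here, so reads of overlapping genes cannot be told apart. Labels and methods name different RNA and library kits. Read counts without normalization were deposited for each gene in each library, and the authors deposited FPKM values beside them, with group means. A log2 fold change, a p-value and an FDR were also deposited by the authors from their own comparison and were not used.

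Counts were tested in R 4.3.3 with edgeR 4.0.16 (two-sided quasi-likelihood test, TMM factors of 0.944 to 0.947 for GFP and 1.05 to 1.06 for CRE, filterByExpr with a minimum count of 10 and a minimum total of 15), with Benjamini-Hochberg adjustment over all 12862 tested genes and a threshold of 0.05. The SE was derived from the log2 fold change and the F statistic. CPM are counts scaled to the TMM-adjusted library size, given as mean ± SD. A count of 0 allows up to 3 counts, 0.156 to 0.186 CPM, by counting error alone. Ratios used counts plus 0.5 and an exact two-sided permutation test (scipy 1.17.1). Alternatives were DESeq2 1.42.0, limma-voom and limma 3.58.1 on log2(FPKM + 1) or log2(FPKM + 0.1), other scalings and filters, a replicate block and leaving out each library. The scripts were tested on simulated data. Gene coordinates are those of GENCODE M21 (GRCm38), upstream sequences those of RefSeq (GRCm38.p6). The motifs TATAAA and CArG were added after values had been seen. Named were all 10 members, *Tet3*, genes of the family and pathway lists (at least the 2 highest and 2 lowest called of each) and cell type markers, mostly by count, with those over 50 CPM. *Tcf21*, *Wt1*, *Myh6*, *Nppb*, *Krt19*, *Upk1b* and *Cldn5* were named after their values were seen. Members and lists were chosen with earlier results of these data known.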

Additional observations from a re-analysis of the deposited data

How the results depend on the processing

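The lower calls of the 9 tested members stayed at 9 in all alternatives except scaling by library size alone (8) and the 3 analyses of FPKM values (7 each). Members at the threshold of the study numbered 3 instead of 6 on log2(FPKM + 1), with or without a filter, with no share of all tested genes beside them. Higher calls of other family genes numbered 2 instead of 1 with library size alone, 10 counts in every library and the 3 FPKM analyses, and 1 to 2 when a library was left out (2 without CRE replicate 2). Higher calls on the pathway lists numbered 5 instead of 2 with library size alone and the 3 FPKM analyses. Signs turned for *Adamtsl2* (0.04 with library size alone, 0.02, 0.03 and 0.02 on FPKM values), *Timp1* (0.07 in these 4 analyses) and *Timp2* (0.07 in the 3 FPKM analyses). The cause of these changes was not tested, though library size alone moved the median of all genes to 0.17 and log2(FPKM + 1) to 0.13.

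Same-numbered libraries did not deviate together (correlations of 0.028, 0.207 and -0.039), and 1 of 3 GFP libraries correlated best with its own number, so the numbers were not taken to pair the samples. With a replicate block, 9 members, 5 other family genes and 27 pathway genes were lower, and 0, 1 and 3 higher, and 12 ratios moved one way within all numbers. The counts of non-overlapping ratios were 12 with a pseudocount of 5, 11 on FPKM values and 12 to 13 without a library. In neighbours of the order of levels, 7 of 9 pairs in GFP kept their order with counts per kb of merged exons, and *Adamts12* with *Adamts5* and *Adamts10* with *Adamts9*, which overlapped in FPKM, changed places. *Adamts5* then also lay above *Adamts1*, not its neighbour in GFP. Their means were 39.3 and 34.0 CPM per kb in GFP and 11.0 and 9.37 in CRE, with overlapping libraries in both groups. Depth limits *Adamts15* and, less so, *Adamtsl1*, and 3 libraries a group limit each single-gene test.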
